A study of Saccharomyces cerevisiae with 12 samples.

Results

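The genes of sulfate assimilation and methionine synthesis in baker's yeast are 35 genes chosen by name, of 5656 genes that had a probe set of their own on the array. They comprise 6 regulators, the permeases for sulfate, S-adenosylmethionine and S-methylmethionine, 8 enzymes that activate and reduce sulfate, 5 that build and sulfhydrylate the homoserine backbone, 4 of transsulfuration, 7 of methionine synthesis and the methyl cycle, and a sulfonate dioxygenase. For each gene the probe set with the greatest 12-array average was read, and all 35 had one. No cut on a measured value set the list, but earlier results of these data were known when the genes were chosen.

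Expression was measured on Affymetrix 3' arrays, 1 per culture, in 4 groups of 3 glucose-limited chemostat cultures. IMZ305 was grown with air. It derives from the auxotrophic strain CEN.PK102-12A, which is MATa with MAL2-8C and SUC2 and carries ura3-52, his3-Δ1 and a mutant leu2 allele. IMZ305 lacks ALD2, ALD3, ALD4, ALD5, ALD6, ACS1 and ACS2, carries LEU2, HIS3, KanMX4, hphNT1, natNT2 and AmdS in their place, and bears pUDE151 with URA3 and eutE of E. coli. IMZ383 was grown without oxygen. It derives from the same auxotroph, lacks ACS2 (replaced by HIS3) and ACS1 (replaced by LEU2), and bears pUDE204 with URA3, pflB and pflA of Escherichia coli. CEN.PK113-7D (MATa MAL2-8C SUC2), with all of these yeast genes intact, was grown without oxygen and with air. All cultures ran at 30 °C and pH 5.0, diluted at 0.1 per h. Glucose in the feed was 20 g/L without oxygen and 7.5 g/L with air, and anaerobic feeds also contained Tween 80 (420 mg/L) and ergosterol (10 mg/L). Strain background, markers and plasmid differ along with the deletions, and each engineered strain was grown in 1 atmosphere, so these factors cannot be told apart. Feed glucose, Tween 80 and ergosterol changed along with oxygen, so the oxygen comparison cannot tell oxygen and feed apart. Nothing in the labels says that the 3 cultures of a group were started independently, so p-values measure the spread between these cultures.

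Yeast takes up sulfate, activates it in ATP-dependent steps, reduces it to sulfite and then to sulfide, and joins the sulfide to O-acetylhomoserine to make homocysteine. The acetyl group of O-acetylhomoserine comes from acetyl-CoA, the metabolite whose synthesis was rerouted in these strains. Homocysteine becomes methionine and S-adenosylmethionine, or exchanges sulfur with cysteine by transsulfuration. The activator Met4 is recruited to these genes by Cbf1, Met28, Met31 and Met32, and is restrained by the ubiquitin ligase subunit Met30 when cysteine is plentiful.

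Between 2 and 12 of the 35 genes were called in each comparison. A gene was called higher or lower at a limma adjusted p under 0.05 over all 9275 probe sets. In IMZ305 against CEN.PK113-7D with air, 4 of the 35 genes rose (CYS3, MET8, MET22 and JLP1) and 2 fell (MET32 and SUL1), or 17.1%, where 14.4% of all probe sets were called (6.09% higher and 8.3% lower). In IMZ383 against CEN.PK113-7D without oxygen, SAM3 rose and SUL1 fell, or 5.71%, against 2.29% of all probe sets (1.69% higher and 0.593% lower). In CEN.PK113-7D without against with oxygen, 5 rose (CYS3, MET22, SAM1, HOM3 and MET6) and 7 fell (SUL1, MET32, MET31, MET30, STR2, STR3 and MMP1), or 34.3%, against 34.2% of all probe sets (11% higher and 23.3% lower). With only 1 probe set per gene tested, 8.57% of all genes were higher and 12.3% lower in IMZ305, with 4 and 2 of the 35. In IMZ383 the shares were 2.99% and 1.11%, with 3 and 2 of the 35. For oxygen they were 10.9% and 34.7%, with 5 and 7 of the 35. Leaving out CEN.PK113-7D with air replicate 2 or 3, or any of the IMZ305 arrays, left 1 gene lower in the aerobic comparison. In these fits 4.19% to 7.94% of all probe sets were lower. In the anaerobic comparison, leaving out IMZ383 replicate 1 or 3 left no gene higher, leaving out IMZ305 replicate 3 gave 2 higher, and leaving out IMZ383 replicate 1 or aerobic CEN.PK113-7D replicate 2 gave 2 lower. Of all probe sets, 1.11% and 1.16% were higher without IMZ383 replicate 1 or 3, and 1.64% without IMZ305 replicate 3. Lower were 0.485% without IMZ383 replicate 1 and 0.615% without aerobic CEN.PK113-7D replicate 2. Arrays of other groups enter through the shared estimate of spread.

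The median log2 change of the 35 genes was 0.26 in IMZ305 with air, where that of all probe sets was 0.00. It was 0.13 in IMZ383 without oxygen, against 0.06, and -0.08 in the oxygen comparison, against -0.18. The groups did not overlap for 13 genes (37.1%) in the aerobic strain comparison, where 31.6% of all probe sets did not overlap. For the anaerobic strain comparison this held for 12 genes (34.3%, against 20.4%), and for the oxygen comparison for 14 (40%, against 43.4%). The oxygen and the aerobic strain comparison share the aerobic CEN.PK113-7D arrays, and the oxygen and the anaerobic strain comparison share the anaerobic ones. In all, 20 of the 35 genes were called in 0 of the 3 comparisons, 11 in 1, 3 in 2 (MET32, MET22 and CYS3) and 1, SUL1, in all 3.

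**Figure D1:**
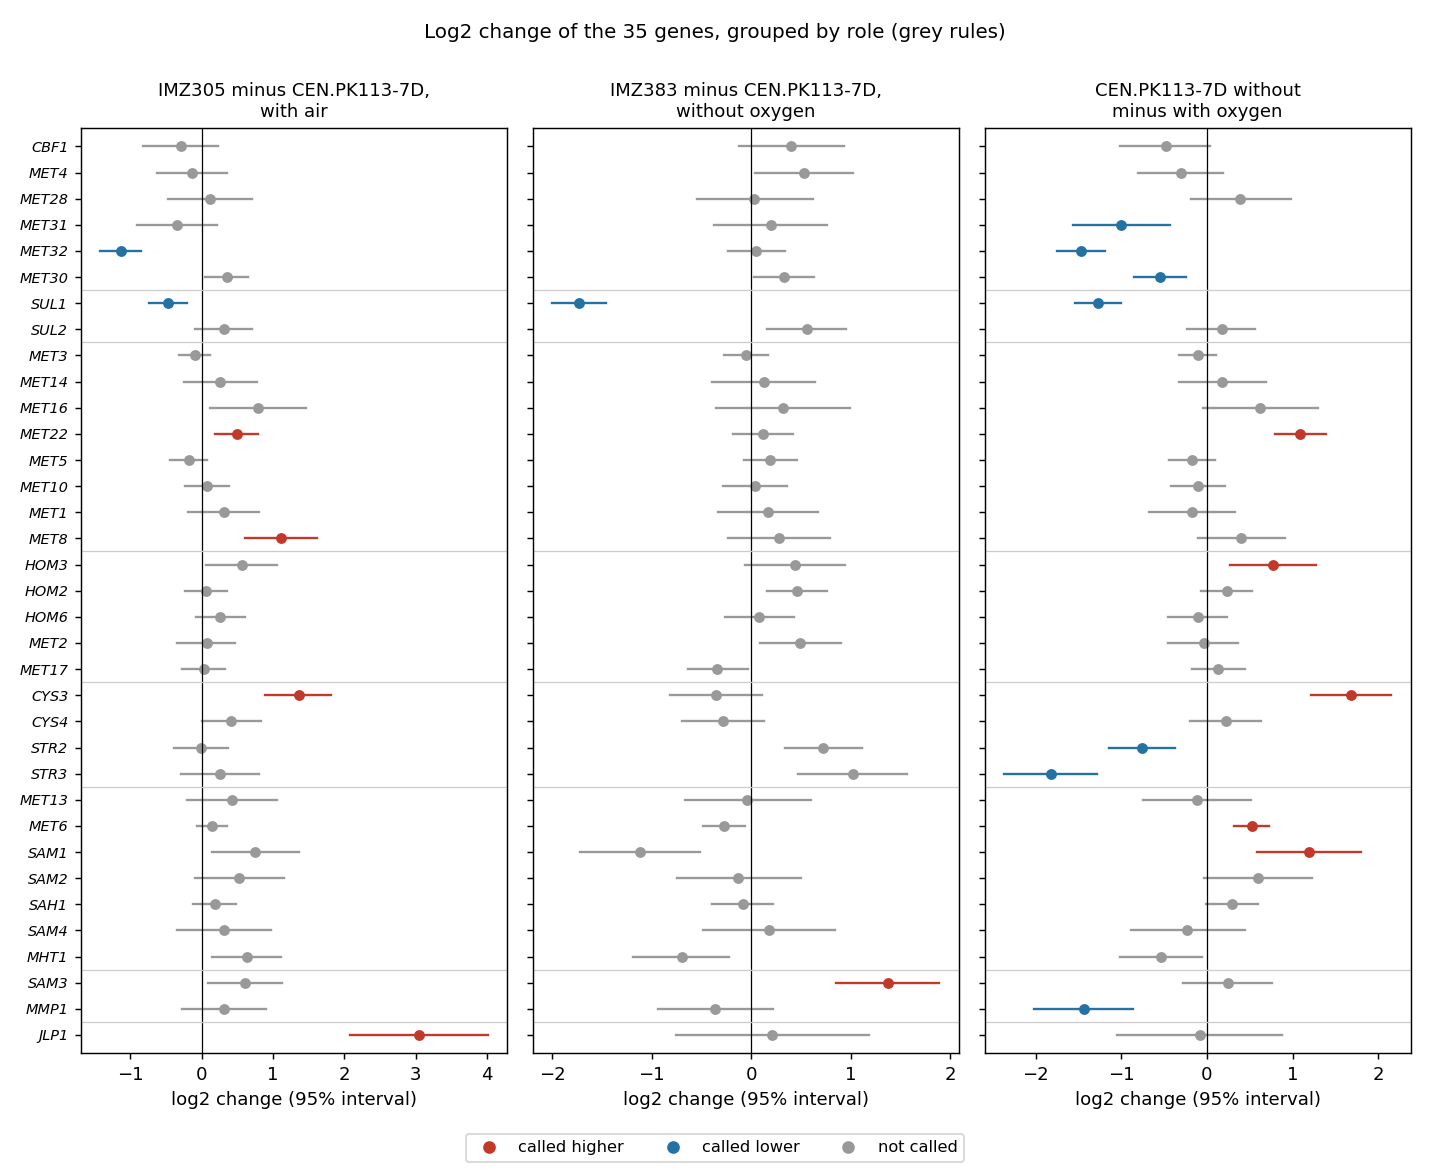
Log2 change (x axis, points) with its 95% interval (lines) for each of the 35 genes (y axis, ordered by role, grey rules between roles) in IMZ305 minus CEN.PK113-7D with air, IMZ383 minus CEN.PK113-7D without oxygen, and CEN.PK113-7D without minus with oxygen. Red points were called higher and blue points lower, and each panel has its own scale; the 3 panels hold 6, 2 and 12 called genes. JLP1 lay at background in every group but IMZ305, so its points depend on the signal floor.

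The direction split of the oxygen comparison depended on the scaling of the arrays. With each array centred on its median, which shifted the median of all probe sets to 0.13, 15 of the 35 genes were higher and 4 lower, while 21.1% of all probe sets were higher and 11.8% lower. With quantile normalization 6 genes were higher and 5 lower, against 14.1% and 14.7% of all probe sets. CYS3, MET22, SAM1, HOM3 and MET6 stayed called higher, and SUL1, MET32, STR3 and MMP1 stayed called lower, under both scalings. MET31, MET30 and STR2 were not called lower under either. Median centring added higher calls for MET28, SUL2, MET3, MET16, MET8, HOM2, MET17, CYS4, SAM2 and SAH1 (limma adjusted p = 0.00854 to 0.0476). Quantile normalization added MET8 as higher (adjusted p = 0.0415) and MET5 as lower (0.0421).

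The deleted genes and the plasmid marker followed the labels. Means of the ALD and ACS genes were 0.1 to 1.83 signal units in IMZ305, against 26 to 2899 in CEN.PK113-7D with air. ACS1 and ACS2 averaged 0.433 and 4.87 in IMZ383, against 108 and 601 in CEN.PK113-7D without oxygen. URA3 averaged 2745 in IMZ305 against 87.1 with air, and 659 in IMZ383 against 64.4 without oxygen. Between 74.1% and 84.9% of yeast probe sets lay above the highest non-target control of their array, which was 2.6 to 7.5 signal units. The BioB hybridization control was 7.9 to 12.0 on all IMZ305 arrays and on aerobic CEN.PK113-7D 1 and 2, and 42.9 to 86.2 on the other 7 arrays. In CEN.PK113-7D the BioB level thus changed along with oxygen, except on aerobic replicate 3. For ACT1, the 3' over 5' signal ratio, which tracks RNA integrity, was 1.37 to 1.47 in IMZ383, against 1.67 to 1.90 in anaerobic CEN.PK113-7D. It was 1.96, 1.24 and 1.47 in aerobic CEN.PK113-7D replicates 1, 2 and 3, and 1.61 to 1.65 in IMZ305. Its part in the comparisons was not tested.

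Of the regulators, the DNA-binding factor gene MET32 (YDR253C) was called in 2 comparisons. It had 51.8, 64.4 and 70.4 signal units in IMZ305, 53.1, 53.1 and 46.2 in IMZ383, 45.7, 52.7 and 48.5 in CEN.PK113-7D without oxygen, and 127.3, 146.0 and 133.7 in CEN.PK113-7D with air. The aerobic CEN.PK113-7D arrays thus stood above the other 9, with no overlap. MET32 fell 2.20-fold in IMZ305 against CEN.PK113-7D with air (log2 change -1.13 ± 0.13 SE, limma adjusted p = 0.000685). It was 2.77-fold lower in CEN.PK113-7D without oxygen than with it (log2 change -1.47 ± 0.13 SE, limma adjusted p = 2.79e-05). In IMZ383 its log2 change was 0.05, with a 95% interval of -0.23 to 0.34.

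MET31 (YPL038W), which encodes the closely related zinc finger factor, had 38.0, 33.6 and 29.9 units in CEN.PK113-7D without oxygen, against 66.2, 61.1 and 74.8 with air. The anaerobic arrays lay below all aerobic arrays of the strain, and MET31 fell 1.99-fold there (limma adjusted p = 0.0128, but 0.0712 and 0.0579 with quantile normalization and median centring). In IMZ305 it had 45.0, 45.2 and 73.7 units, which overlapped with CEN.PK113-7D with air (log2 change -0.34, 95% interval -0.90 to 0.22).

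MET30 (YIL046W), the gene of the F-box subunit that marks Met4 for ubiquitination, had 98.8, 100.3 and 100.7 units in CEN.PK113-7D without oxygen, against 150.9, 143.5 and 143.9 with air. It fell 1.46-fold (limma adjusted p = 0.0108), a call that ended under quantile normalization (adjusted p = 0.246) and median centring (adjusted p = 0.462). Within each atmosphere every array of the engineered strain lay above those of CEN.PK113-7D, at 176.1 to 201.1 units in IMZ305 against 143.5 to 150.9 in CEN.PK113-7D with air, and at 101.3 to 151.4 in IMZ383 against 98.8 to 100.7 in CEN.PK113-7D without oxygen. These differences of 0.35 and 0.33 on the log2 scale were not called (limma adjusted p = 0.117 and 0.277), except in IMZ305 without IMZ383 replicate 3 (0.0342).

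The genes of the activator Met4 and of its partners Met28 and Cbf1 were not called in any comparison. MET4 (YNL103W) averaged 63.6 ± 11 units in IMZ305, 80.8 ± 9.22 in IMZ383, 56.9 ± 14.3 in CEN.PK113-7D without oxygen and 69.9 ± 14.6 with air (SD, n = 3 each). MET28 (YIR017C) averaged between 144 and 190 units in the 4 groups and CBF1 (YJR060W) between 20.4 and 29.0, with overlapping arrays in all 3 comparisons. Their intervals were wide: for MET4 in IMZ383 the 95% interval of the log2 change ran from 0.04 to 1.02. For oxygen, MET28 was called higher with median centring (log2 change 0.79, limma adjusted p = 0.0476). It was also called without aerobic CEN.PK113-7D replicate 2 (0.67, adjusted p = 0.0469). Without aerobic CEN.PK113-7D replicate 1, CBF1 was called lower for oxygen (-0.69, adjusted p = 0.0472).

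The sulfate permease genes SUL1 and SUL2 behaved differently. SUL1 (YBR294W) had 753.7, 744.8 and 713.4 signal units in IMZ305, 109.0, 139.1 and 137.8 in IMZ383, 464.2, 427.6 and 383.0 in CEN.PK113-7D without oxygen, and 962.8, 1121.6 and 990.8 with air. No array of any group overlapped with an array of another group, and the order of the groups was CEN.PK113-7D with air, IMZ305, CEN.PK113-7D without oxygen and IMZ383, high to low. SUL1 fell 3.31-fold in IMZ383 (log2 change -1.73 ± 0.12 SE, limma adjusted p = 7.43e-05). It was 2.41-fold lower in CEN.PK113-7D without oxygen than with air (limma adjusted p = 5.01e-05).

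In IMZ305 SUL1 fell 1.39-fold (limma adjusted p = 0.03). This call ended on leaving out CEN.PK113-7D with air replicate 2 (adjusted p = 0.0747) or 3 (0.056), or IMZ305 replicate 1 (0.0794), 2 (0.0851) or 3 (0.0741). The array set without replicate 3 of aerobic CEN.PK113-7D is also the set in which all arrays of this comparison share a low BioB signal. With the culture number as a block the adjusted p was 0.0527. It was 0.0676 with median centring and 0.0614 with no floor.

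SUL2 (YLR092W), the gene of the other high-affinity sulfate permease, had 524.1, 490.8 and 548.7 units in IMZ305, 610.7, 666.4 and 833.6 in IMZ383, 538.1, 445.3 and 444.0 in CEN.PK113-7D without oxygen, and 335.1, 426.6 and 523.1 with air. The IMZ383 arrays lay above all anaerobic CEN.PK113-7D arrays, yet the log2 change of 0.56 (95% interval 0.16 to 0.95) was not called (limma adjusted p = 0.157). The aerobic strain groups overlapped, and the oxygen groups overlapped as well, with log2 changes of 0.31 and 0.17. In each of the 3 comparisons the point estimate for SUL2 had the opposite sign to that for SUL1.

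**Figure D2:**
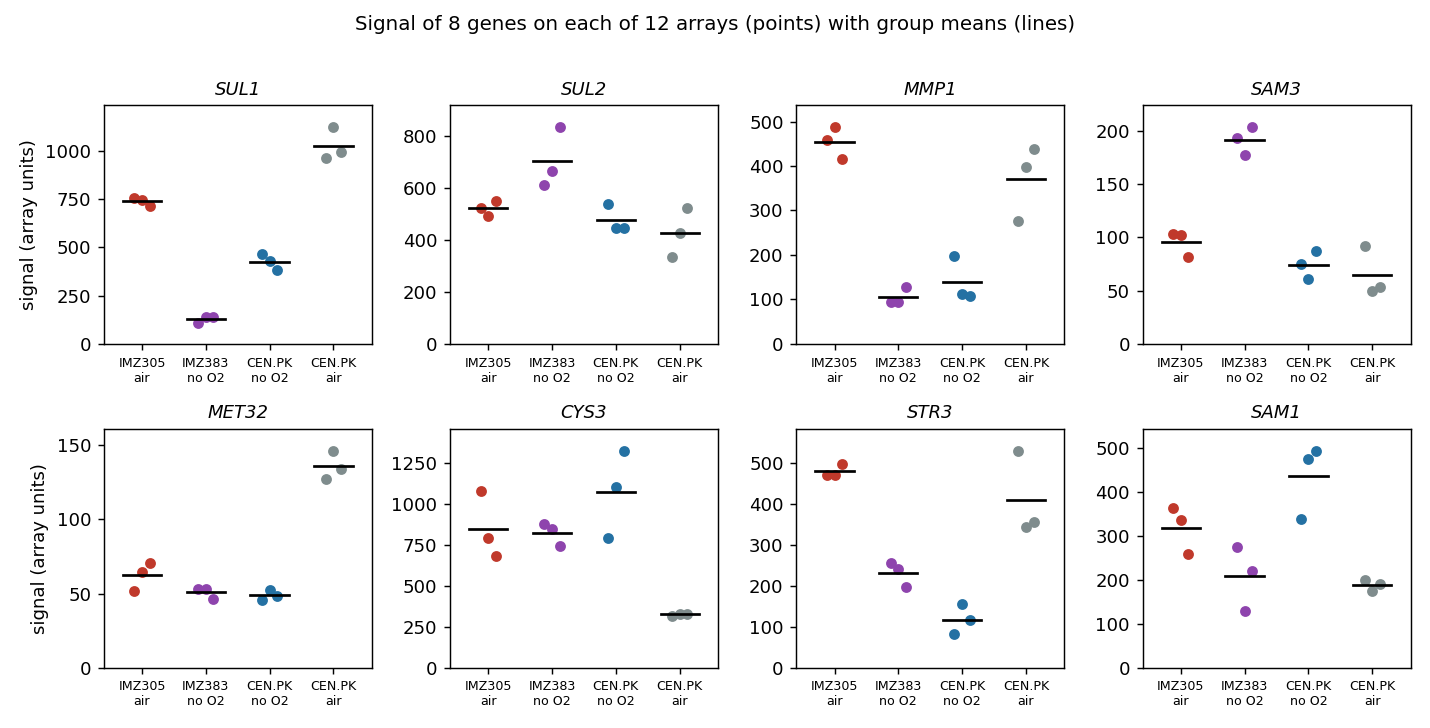
Signal in array units (y axis, linear from 0) of 8 genes on each array (points) in IMZ305 with air, IMZ383 without oxygen, and CEN.PK113-7D (CEN.PK) without oxygen and with air (x axis); black lines are means of 3 arrays. SUL1 falls to 129 in IMZ383, MET32 stands high in aerobic CEN.PK113-7D alone at 136, and CYS3 stands low there at 327.

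Of the 8 genes of sulfate activation and reduction, MET3, MET10 and MET5 had the narrowest range of group means. MET3 (YJR010W), which encodes ATP sulfurylase at the entry of the pathway, averaged 738 ± 11.2 units in IMZ305, 712 ± 76.3 in IMZ383, 736 ± 61.9 in CEN.PK113-7D without oxygen and 791 ± 27.9 with air (SD, n = 3 each). Its highest and lowest group means differed 1.11-fold. The 95% intervals of its log2 changes were -0.32 to 0.12 in IMZ305, -0.27 to 0.17 in IMZ383 and -0.33 to 0.11 for oxygen. MET10 (YFR030W) and MET5 (YJR137C), which encode the subunits of sulfite reductase, spanned 1.13-fold and 1.15-fold between group means, at 443 to 501 and 963 to 1109 units. With median centring of the arrays MET3 was called higher in the oxygen comparison (log2 change 0.29, adjusted p = 0.0387), and with quantile normalization MET5 was called lower (-0.39, adjusted p = 0.0421).

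MET14 (YKL001C, adenylylsulfate kinase) averaged 690 to 855 units and MET1 (YKR069W, a methyltransferase that makes the siroheme cofactor of sulfite reductase) 323 to 451. Neither was called. The cultures of aerobic CEN.PK113-7D differed widely: MET14 read 495.1, 772.1 and 802.3 units there, and MET1 read 246.1, 481.4 and 406.4. For MET16 (YPR167C), the gene of the reductase that makes sulfite, that group had 131.2, 352.4 and 188.4 units, a coefficient of variation of 51.3%, and replicate 1 was the lowest array for all these 3 genes. MET16 had 327.3, 388.5 and 353.6 units in IMZ305, and its log2 change of 0.79 was not called (limma adjusted p = 0.117). Without aerobic CEN.PK113-7D replicate 2 it was called, at a log2 change of 1.18 (adjusted p = 0.00513), and so was the oxygen comparison (1.01, adjusted p = 0.00339). Array quality weights also called MET16 higher in IMZ305 (0.97, limma adjusted p = 0.0211).

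MET8 (YBR213W), which encodes the enzyme of the last steps of siroheme synthesis, rose in IMZ305. It had 75.9, 64.6 and 68.0 units there, against 32.2, 33.2 and 30.9 in CEN.PK113-7D with air. The groups lay far apart, and the rise was 2.16-fold (log2 change 1.11 ± 0.22 SE, limma adjusted p = 0.0124). MET8 had 57.1, 42.6 and 56.0 units in IMZ383, against 34.8, 34.5 and 63.5 in CEN.PK113-7D without oxygen, where replicate 3 lay above all IMZ383 arrays (log2 change 0.28, limma adjusted p = 0.617).

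MET22 (YOL064C), whose product clears the phosphoadenosine phosphate left by sulfate reduction, lay above the aerobic CEN.PK113-7D arrays on every other array. It had 417.6, 466.7 and 503.6 units in IMZ305, 670.0, 799.5 and 804.0 in IMZ383, 597.6, 794.4 and 711.4 in CEN.PK113-7D without oxygen, and 297.3, 352.9 and 335.7 with air. It was 2.12-fold higher in CEN.PK113-7D without oxygen than with it (limma adjusted p = 0.000266). The call of the 1.41-fold rise in IMZ305 (limma adjusted p = 0.0395) ended on leaving out aerobic CEN.PK113-7D replicate 1 (0.114) or 3 (0.0743), IMZ305 replicate 1 (0.0587), 2 (0.113) or 3 (0.104), or anaerobic CEN.PK113-7D replicate 3 (0.0578), and on fitting the aerobic groups alone (0.0635). That call also ended with no floor (limma adjusted p = 0.0686). Replicate 1 of IMZ383 and replicate 1 of anaerobic CEN.PK113-7D were the lowest of their groups, which overlapped (log2 change 0.12).

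**Figure D3:**
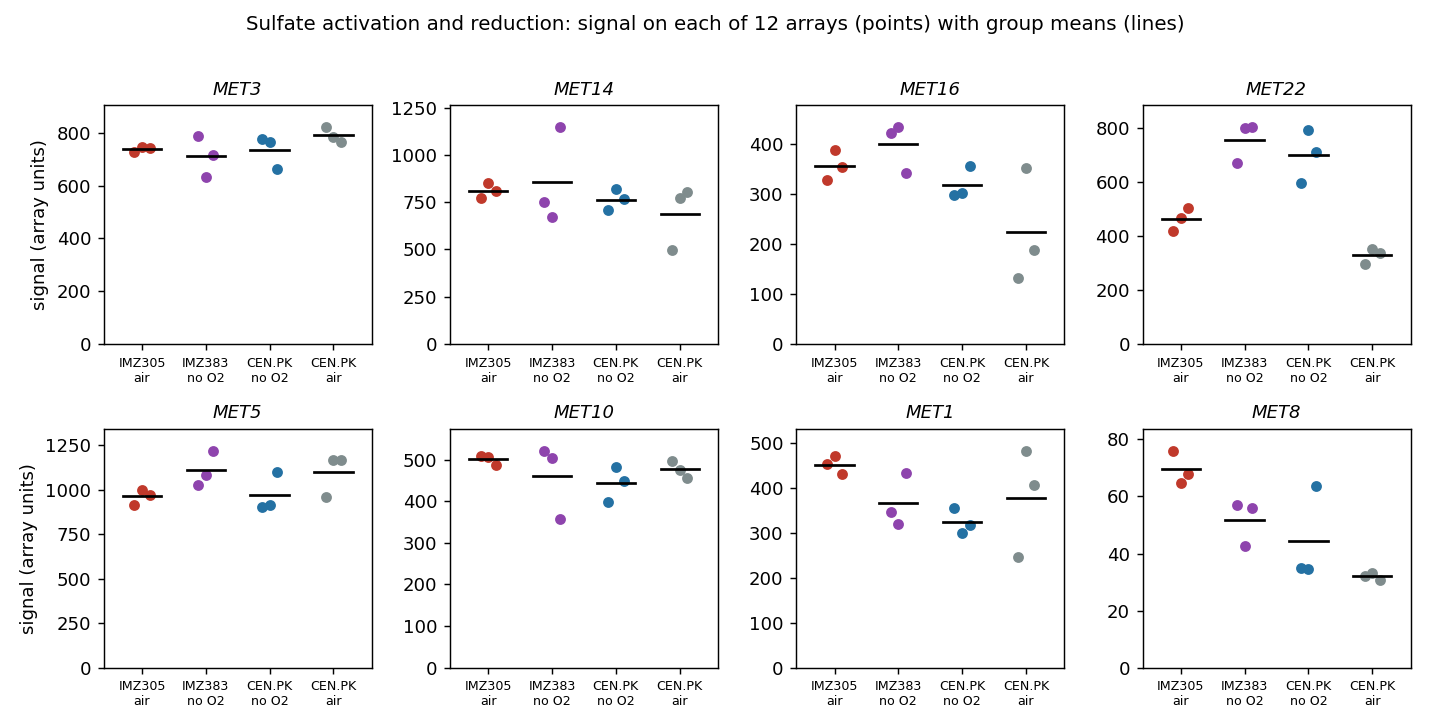
Signal in array units (y axis, linear from 0) of the 8 genes of sulfate activation and reduction on each array (points) in IMZ305 with air, IMZ383 without oxygen, and CEN.PK113-7D (CEN.PK) without oxygen and with air (x axis); black lines are means of 3 arrays. MET3 and MET10 are nearly level over the 4 groups, MET22 and MET8 are lowest in aerobic CEN.PK113-7D, and MET16 and MET1 scatter most within that group.

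Genes of the homoserine backbone and of sulfide capture were mostly not called. MET2 (YNL277W), which encodes the homoserine acetyltransferase that uses acetyl-CoA, had 491.4, 484.7 and 586.2 units in IMZ305, against 479.2, 414.4 and 612.7 in CEN.PK113-7D with air. The groups overlapped, with a log2 change of 0.07 and a 95% interval of -0.34 to 0.47. In IMZ383 it had 593.3, 668.7 and 781.9 units, against 576.0, 462.7 and 416.0 in CEN.PK113-7D without oxygen. Each IMZ383 array lay above these, and the log2 change of 0.49 (95% interval 0.09 to 0.90) was not called (limma adjusted p = 0.228).

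MET17 (YLR303W), the gene of the O-acetylhomoserine sulfhydrylase that incorporates sulfide, averaged 3089 ± 15.7 units in IMZ305 and 3061 ± 482 in CEN.PK113-7D with air (SD, n = 3 each). It averaged 2646 ± 374 in IMZ383 and 3320 ± 105 in CEN.PK113-7D without oxygen, with a log2 change of -0.34 (limma adjusted p = 0.28). Group means of MET17 thus spanned 1.25-fold.

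HOM3 (YER052C), which encodes aspartate kinase, the first enzyme of the backbone branch, had 341.4, 639.0 and 445.8 units in CEN.PK113-7D without oxygen, against 225.0, 260.2 and 337.1 with air. All anaerobic arrays lay above the aerobic ones, the nearest only just, and HOM3 rose 1.70-fold (limma adjusted p = 0.0248). The call ended on leaving out aerobic replicate 1 (adjusted p = 0.0853) or 2 (0.0604), or anaerobic replicate 2 (0.0654) or 3 (0.0584), and on fitting these groups alone (0.115). HOM3 was not called in IMZ305 (log2 change 0.56, limma adjusted p = 0.131) or IMZ383 (0.44, limma adjusted p = 0.389). HOM2 (YDR158W), the gene of the next enzyme, had 716.0, 799.9 and 748.8 units in IMZ383, all above the 443.1, 638.5 and 580.9 units of CEN.PK113-7D without oxygen, with no call (log2 change 0.46, limma adjusted p = 0.124). For oxygen HOM2 was called higher without anaerobic CEN.PK113-7D replicate 1 (0.38, limma adjusted p = 0.0238). HOM6 (YJR139C, homoserine dehydrogenase) averaged 1696 to 2194 units and was not called.

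In transsulfuration the gene that yields cysteine and the genes of the reverse route went opposite ways with oxygen. CYS3 (YAL012W), which encodes the cystathionine gamma-lyase that releases cysteine, had 1080.0, 792.7 and 682.2 units in IMZ305, 877.1, 849.4 and 742.3 in IMZ383, 790.7, 1103.0 and 1325.9 in CEN.PK113-7D without oxygen, and 319.4, 330.3 and 330.6 with air. The aerobic CEN.PK113-7D arrays lay below the other 9 and close to each other. CYS3 rose 2.56-fold in IMZ305 (log2 change 1.36 ± 0.21 SE, limma adjusted p = 0.00331), and was 3.21-fold higher in CEN.PK113-7D without oxygen than with it (limma adjusted p = 0.000266). In IMZ383 its log2 change was -0.35 (95% interval -0.82 to 0.11). CYS4 (YGR155W), the gene of the preceding cystathionine beta-synthase, averaged 437 to 601 units and was not called. With median centring CYS4 was called higher for oxygen (log2 change 0.61, limma adjusted p = 0.0473).

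STR3 (YGL184C), which encodes the cystathionine beta-lyase that leads back to homocysteine, had 81.1, 156.3 and 115.3 units in CEN.PK113-7D without oxygen, against 528.2, 343.9 and 356.3 with air. It fell 3.54-fold, with no overlap (log2 change -1.82 ± 0.24 SE, limma adjusted p = 0.000413). STR2 (YJR130C), the gene of the cystathionine gamma-synthase before it, had 71.2, 100.6 and 87.3 units without oxygen, against 159.2, 126.4 and 149.9 with air, and fell 1.69-fold (limma adjusted p = 0.00746, but 0.0865 and 0.113 with quantile normalization and median centring). Both genes had all IMZ383 arrays above all anaerobic CEN.PK113-7D arrays, at 255.4, 240.7 and 196.4 units for STR3 and 150.3, 131.7 and 142.5 for STR2. These differences of 1.02 and 0.72 on the log2 scale missed the threshold (limma adjusted p = 0.0711 and 0.0668). With 1 probe set per gene they passed it (adjusted p = 0.0402 and 0.044), and with array quality weights also (0.0281 and 0.0282). STR3 also passed with a filter on low signal (0.0376), an intensity trend (0.0322) and without anaerobic CEN.PK113-7D replicate 2 (0.0392), and STR2 without IMZ305 replicate 3 (0.0474). In IMZ305 their log2 changes were 0.25 and -0.01.

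In methionine synthesis and the methyl cycle, 2 of 7 genes rose in CEN.PK113-7D without oxygen and 0 fell, where 11% of all probe sets rose and 23.3% fell. Limma called 0 of the 7 in either strain comparison. At an unadjusted p under 0.05 there were 2 of the 7 in IMZ305, against 28.2% of all probe sets, and 3 of the 7 in IMZ383, against 15.4%. MET6 (YER091C), the gene of the cobalamin-independent methionine synthase, had 2573.7, 2368.1 and 2611.2 units in CEN.PK113-7D without oxygen, against 1818.2, 1649.3 and 1804.5 with air. It rose 1.43-fold with little spread (log2 change 0.52 ± 0.09 SE, limma adjusted p = 0.00217). MET6 averaged 1940 ± 147 units in IMZ305 and 2087 ± 151 in IMZ383, with log2 changes of 0.14 and -0.27 that were not called.

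SAM1 (YLR180W), which encodes an S-adenosylmethionine synthetase, had 362.3, 335.9 and 258.1 units in IMZ305, 275.7, 128.5 and 219.7 in IMZ383, 339.0, 475.0 and 493.0 in CEN.PK113-7D without oxygen, and 198.8, 175.7 and 189.4 with air. All IMZ305 arrays lay above aerobic CEN.PK113-7D and all IMZ383 arrays below anaerobic CEN.PK113-7D. SAM1 rose 2.29-fold in CEN.PK113-7D without oxygen (limma adjusted p = 0.00772), whereas the log2 changes of 0.75 in IMZ305 and -1.12 in IMZ383 missed the threshold (limma adjusted p = 0.101 and 0.073). In IMZ383 SAM1 passed it with 1 probe set per gene (adjusted p = 0.041), a filter on low signal (0.0366), an intensity trend (0.0314) and without IMZ383 replicate 1 (0.0478). In IMZ305 it passed with a fit of the aerobic groups alone (0.0493), array quality weights (0.0417) and without IMZ383 replicate 2 (0.0326). SAM2 (YDR502C) encodes a near-identical enzyme, so these probe sets may read each other's transcripts. SAM2 averaged 626 to 982 units and was not called, with log2 changes of 0.53, -0.13 and 0.60 in the IMZ305, IMZ383 and oxygen comparisons. For oxygen SAM2 was called higher with median centring (limma adjusted p = 0.0282) and without anaerobic CEN.PK113-7D replicate 2 (0.00889).

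MHT1 (YLL062C), whose product makes methionine from homocysteine and S-methylmethionine, had 151.9, 157.1 and 145.9 units in IMZ305, against 71.0, 139.8 and 95.4 in CEN.PK113-7D with air. It had 36.3, 39.9 and 48.8 units in IMZ383, against 69.3, 66.9 and 66.0 in CEN.PK113-7D without oxygen. The strain groups did not overlap in either atmosphere, but in opposite directions, and the log2 changes of 0.63 and -0.70 were not called (limma adjusted p = 0.085 and 0.143). Without aerobic CEN.PK113-7D replicate 2, MHT1 passed the threshold in both comparisons (log2 changes 0.88 and -0.70, adjusted p = 0.00921 and 0.0401), as it did with array quality weights (0.0169 and 0.0454). For oxygen MHT1 was called lower without aerobic CEN.PK113-7D replicate 1 (-0.78, limma adjusted p = 0.0112). SAH1 (YER043C), which encodes S-adenosylhomocysteine hydrolase, averaged 909 to 1111 units, and MET13 (YGL125W, methylenetetrahydrofolate reductase) 410 to 625. SAM4 (YPL273W, a homocysteine methyltransferase that uses S-adenosylmethionine) averaged 60.5 to 84.9 units. None of these 3 was called, but median centring called SAH1 higher for oxygen (log2 change 0.69, limma adjusted p = 0.00854).

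The permease genes for methylated sulfur compounds were called in different comparisons. SAM3 (YPL274W), which encodes the S-adenosylmethionine permease, had 193.6, 177.4 and 203.5 units in IMZ383, against 75.4, 61.2 and 87.1 in CEN.PK113-7D without oxygen. The groups lay far apart, and SAM3 rose 2.59-fold (log2 change 1.37 ± 0.23 SE, limma adjusted p = 0.0159). The call ended on leaving out IMZ383 replicate 1 (adjusted p = 0.0582) or 3 (0.0573), or anaerobic CEN.PK113-7D replicate 2 (0.061). The probe set is of a kind that can read several related transcripts. Of the other 4 probe sets of SAM3, 2 were also called higher (log2 changes 1.25 and 0.91, adjusted p = 0.00115 and 0.0181), 1 was not (2.21, adjusted p = 0.109), and the fifth lay under background in both groups. For oxygen, another probe set of SAM3 was called lower (log2 change -0.50, limma adjusted p = 0.0157). The chosen one was called there only without aerobic CEN.PK113-7D replicate 1, as higher (0.52, adjusted p = 0.0493). That other probe set was also called in the IMZ383 effect minus the IMZ305 effect (1.03, adjusted p = 0.00991). In IMZ305 SAM3 had 103.0, 102.7 and 81.7 units, against 91.7, 49.6 and 53.7 in CEN.PK113-7D with air (log2 change 0.61, limma adjusted p = 0.118, but 0.0151 without aerobic CEN.PK113-7D replicate 1).

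MMP1 (YLL061W), the gene of the S-methylmethionine permease and a neighbour of MHT1, had 198.7, 112.4 and 108.0 units in CEN.PK113-7D without oxygen, against 276.3, 398.3 and 438.9 with air. It fell 2.72-fold, with no overlap (log2 change -1.44 ± 0.26 SE, limma adjusted p = 0.00221). It had 459.5, 487.3 and 416.5 units in IMZ305, and 94.8, 95.1 and 127.4 in IMZ383. Each engineered strain overlapped with CEN.PK113-7D of its atmosphere, with log2 changes of 0.32 and -0.36.

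JLP1 (YLL057C), the gene of an oxygen-dependent dioxygenase that frees sulfite from sulfonates, was near background. It had 9.7, 20.0 and 4.6 units in IMZ305, against 0.8, 1.2 and 1.2 in CEN.PK113-7D with air. The first 2 IMZ305 arrays lay above their highest non-target control and the third did not, while all CEN.PK113-7D arrays lay under theirs. With the aerobic CEN.PK113-7D signals replaced by their highest controls, JLP1 was 1.61-fold higher in IMZ305. That value was not itself tested. It is not a strict lower bound, because the third IMZ305 array kept a signal under its own control. The call rests on the floored values (log2 change 3.05, limma adjusted p = 0.00226). It lay under background on every anaerobic array, at 0.6 to 1.7 units in IMZ383 and 0.3 to 1.1 in CEN.PK113-7D, so no fold is given there.

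The effects of the strains were compared with each other as the IMZ383 change without oxygen minus the IMZ305 change with air. Of the 35 genes, 6 differed (17.1%, where 8.87% of all probe sets did, 5.92% higher and 2.95% lower): MET32 was higher in this difference, and SUL1, CYS3, SAM1, MHT1 and JLP1 were lower. With only 1 probe set per gene tested, 1 of the 35 was higher and 5 lower, where 10% and 4.49% of all genes were. For MET32 the difference was 1.19 ± 0.18 SE on the log2 scale (limma adjusted p = 0.00433), and for SUL1 it was -1.26 ± 0.17 (limma adjusted p = 0.00252). CYS3 gave -1.71 ± 0.29 (limma adjusted p = 0.00836) and SAM1 -1.87 ± 0.38 (limma adjusted p = 0.017). Hence SUL1 was lower in both strains and further so in IMZ383, though its IMZ305 call ended on leaving out any of 5 arrays. The changes of SAM1 and MHT1 had opposite signs.

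MHT1 differed by -1.33 ± 0.30 SE (limma adjusted p = 0.0266), but not on leaving out any of 8 arrays (adjusted p = 0.0501 to 0.0685): aerobic CEN.PK113-7D 3, IMZ305 1 or 2, anaerobic CEN.PK113-7D 1, 2 or 3, and IMZ383 1 or 2. JLP1 (limma adjusted p = 0.0212) rests on values at background. It was not called without IMZ305 replicate 1 (adjusted p = 0.0529) or anaerobic CEN.PK113-7D replicate 3 (0.0519), without a floor (0.139) or with a floor 2 times as high (0.0523). Leaving out IMZ305 replicate 1 or anaerobic CEN.PK113-7D replicate 3 left 3 genes lower in the difference, where 1.8% and 1.88% of all probe sets were. Leaving out IMZ305 replicate 3 gave 2 higher, adding STR2 (0.89, limma adjusted p = 0.0434), where 6.29% of all probe sets were. Array quality weights added STR2 as higher (limma adjusted p = 0.0291), and CYS4 and MET6 as lower (0.0349 and 0.026).

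**Figure D4:**
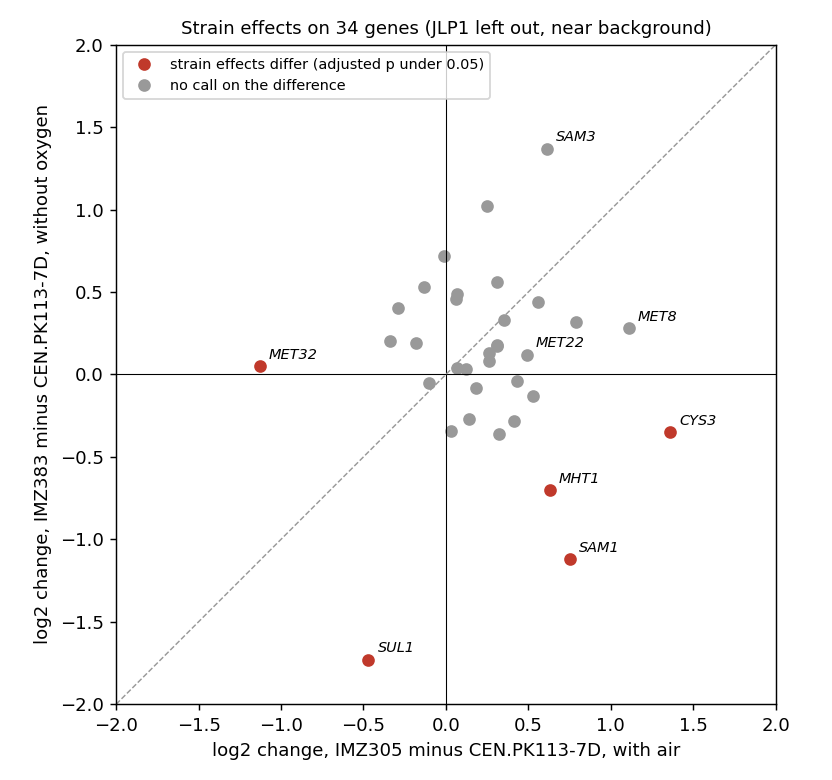
Log2 change of 34 genes in IMZ305 minus CEN.PK113-7D with air (x axis) and in IMZ383 minus CEN.PK113-7D without oxygen (y axis); each point is a gene, the dashed line marks equal changes, and red points have strain effects that differ. MET32, SUL1, CYS3, SAM1 and MHT1 lie farthest from the dashed line in the tested difference, and JLP1 is left out because it lay at background without oxygen.

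A further 31 genes of sulfur metabolism were listed by function: methionine and cysteine permeases, folate partners, glutathione, thioredoxin and methionine sulfoxide reductases, methylthioadenosine salvage, other sulfur sources and the ligase partners of Met30. In IMZ305, 6 of these rose and 1 fell (22.6%, against 14.4% of all probe sets). With only 1 probe set per gene tested, 6 were higher and 2 lower, where 8.57% and 12.3% of all genes were. CDC34 (YDR054C), which encodes the ubiquitin-conjugating enzyme that works with the Met30 ligase, had 141.0, 136.5 and 128.5 units in IMZ305, against 501.7, 467.9 and 519.6 in CEN.PK113-7D with air. It fell 3.67-fold, with a wide gap between the groups (limma adjusted p = 3.25e-05). IRC7, a gene related to the cystathionine lyases, rose 1.69-fold to 22.5 ± 2.82 units in IMZ305, against 13.2 ± 0.651 (limma adjusted p = 0.00447). UTR4, of methylthioadenosine salvage, rose 1.73-fold (limma adjusted p = 0.00617, but 0.0502 on fitting the aerobic groups alone), and BDS1, an alkylsulfatase gene, rose 1.95-fold. The methionine permease gene MUP1 averaged 380 ± 38.5 units in IMZ305, against 156 ± 33.3 with air (SD, n = 3 each), a 2.47-fold rise (limma adjusted p = 0.0125). The glutathione transporter gene OPT1 and the thioredoxin reductase gene TRR1 made up the count of 6, with less stable calls. OPT1 (limma adjusted p = 0.0331) was not called on leaving out any IMZ305 array or aerobic CEN.PK113-7D replicate 2 or 3 (adjusted p = 0.0559 to 0.108), or on fitting the aerobic groups alone (0.0949). TRR1 (limma adjusted p = 0.0411) was not called on leaving out any IMZ305 array, aerobic CEN.PK113-7D replicate 1 or 2, anaerobic CEN.PK113-7D replicate 3 or IMZ383 replicate 3 (adjusted p = 0.0516 to 0.131). It was also not called with median centring (0.0507), no floor (0.0684), the aerobic groups alone (0.0594) or the replicate block (0.0591). Fitting the aerobic groups alone left 3 of the 31 genes higher, where 3.71% of all probe sets were, against 6.09% as reported. Leaving out aerobic CEN.PK113-7D replicate 2 gave 3 lower, where 7.94% of all probe sets were. Leaving out IMZ383 replicate 2 or 3 gave 2 lower, where 7.99% and 7.85% were, against 8.3% as reported.

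In IMZ383 BDS1 was the gene of the 31 that was called (3.23%, against 2.29% of all probe sets), with 35.3, 27.1 and 30.6 units against 13.5, 17.3 and 17.8 in CEN.PK113-7D without oxygen (1.92-fold, limma adjusted p = 0.0231). That call ended on leaving out any anaerobic CEN.PK113-7D array or IMZ383 replicate 1 or 3 (adjusted p = 0.0523 to 0.0786). It also ended under quantile normalization (0.0724), median centring (0.0839), a fit of the anaerobic groups alone (0.0908) and the replicate block (0.0592). Without IMZ383 replicate 3, 1 of the 31 genes was called lower, where 0.442% of all probe sets were, against 0.593% as reported. CDC34 had 290 ± 40.4 units in IMZ383 and 281 ± 33.6 in CEN.PK113-7D without oxygen. The strain effects differed for 5 of the 31 genes, 2 higher and 3 lower (16.1%, against 8.87% of all probe sets): for CDC34 by 1.92 on the log2 scale (limma adjusted p = 0.000423), for MUP1 by -2.24 (limma adjusted p = 0.00761), and for UTR4, IRC7 and GSH1. With only 1 probe set per gene tested, 3 were higher and 3 lower, where 10% and 4.49% of all genes were.

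Without oxygen, 5 of the 31 genes rose in CEN.PK113-7D and 14 fell (61.3%, against 34.2% of all probe sets). This split depended on the scaling: 6 were higher and 6 lower with median centring, and 5 were higher and 9 lower with quantile normalization. Of all probe sets, 21.1% were higher and 11.8% lower with median centring, and 14.1% and 14.7% with quantile normalization. With only 1 probe set per gene tested, 5 were higher and 15 lower, where 10.9% and 34.7% of all genes were. Median centring ended the lower calls of YCT1, GSH1, ECM38, BDS1, MEU1, MRI1, SKP1 and CDC53 (adjusted p = 0.0564 to 0.735). Without aerobic replicate 3, 9 were lower, where 20.5% of all probe sets were, against 23.3% as reported. The high-BioB arrays include only 1 aerobic array, so no counts are given for them here. All 5 listed genes of methylthioadenosine salvage, the route that recovers methionine from polyamine synthesis, were called: UTR4 rose 3.05-fold and ADI1, MDE1, MEU1 and MRI1 fell. ADI1 (YMR009W), which encodes the dioxygenase of that route, had 81.4, 96.0 and 93.9 units without oxygen, against 435.2, 709.4 and 553.4 with air, a 6.15-fold fall (limma adjusted p = 1.76e-05). MXR1, a methionine sulfoxide reductase gene, fell 2.58-fold (limma adjusted p = 6.26e-05), and IRC7 rose 2.86-fold (limma adjusted p = 2.14e-05). The calls of MEU1 and MRI1 ended under quantile normalization (adjusted p = 0.667 and 0.592) and median centring (0.684 and 0.587), and on leaving out any of 4 arrays each.

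Replicates of the 34 genes that lay above background on all arrays agreed about as well as those of other probe sets. Their median coefficient of variation was 7.72% in IMZ305, 14% in IMZ383, 11.7% in CEN.PK113-7D without oxygen and 16.6% with air. Over the 6301 probe sets above background on all arrays it was 11.3%, 15.3%, 13.3% and 17.7% in the same order. In aerobic CEN.PK113-7D, replicate 1 was the lowest array for 18 of the 34 genes, replicate 2 for 10 and replicate 3 for 6. This was not counted over the 6301 probe sets, so it may hold for the array in general.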

How the data were processed

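RNA of 12 cultures was labelled from 200 ng total RNA, per the labels' protocols. The authors deposited 1 linear intensity (signal) for each probe set, made with software not given in the sources used here. Trimmed of its top and bottom 2%, each array averaged between 150.12 and 150.15, so the deposited intensities were already scaled and changes are relative to the array level. Tests covered 9275 of the 9335 probe sets, the other 60 being controls; the platform annotation gave 6504 of them 1 gene, 328 several and 2443 none, and symbols were checked by Entrez ID against RefSeq (R64), where none changed. Arrays carry no counts, and their number limits the precision.

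Values under the 10th percentile (1.1) were set to it before log2. Limma 3.58.1 (R 4.3.3) fitted a mean per group over all 12 arrays, with two-sided moderated tests and Benjamini-Hochberg adjustment over 9275 probe sets. The code was tested on simulated data. "Rose" and "fell" mark adjusted p under 0.05, ± after a log2 change or difference is its standard error (SE), and after a mean it is the SD. Background on an array was the highest of 16 bacterial and mouse control probe sets. Where all arrays of 1 group lay under it, their controls replaced their signals and the fold is a lower bound. For JLP1 it is not strict, as 1 IMZ305 array also lay under background. Genes of the list are all named; of the 31 others, the 4 with the lowest adjusted p per comparison were to be given with values, and MUP1 in IMZ305, those that complete small counts or lost their call, and MEU1, MRI1 and MDE1 were added after their values were seen, as were counts of the 31 under the alternatives. The members and lists were chosen with earlier results of these data known. Replicate numbers did not pair the cultures: deviations of same-numbered arrays correlated between -0.03 and 0.048. Promoter motifs were planned but not analysed here. Alternatives were other scalings, floors, filters, probe sets, fits, weights, thresholds, BioB level and leaving out each array.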

Additional observations from a re-analysis of the deposited data

Results flagged for a closer look

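The strain effects, IMZ383 without oxygen minus IMZ305 with air, differed by a tested interaction for 6 of the 35 genes (17.1%) and 5 of the 31 others (16.1%), where 8.87% of all probe sets differed. With only 1 probe set per gene tested, 10% of all genes were higher and 4.49% lower. The list then held 1 higher and 5 lower, and the 31 others 3 and 3. On the log2 scale the difference was 1.19 for MET32, -1.26 for SUL1, -1.71 for CYS3, -1.87 for SAM1, -1.33 for MHT1 and -2.84 for JLP1, the last from values at background. Of the other sulfur genes it was 1.92 for CDC34, -2.24 for MUP1, -1.04 for UTR4 and -0.80 for IRC7 (limma adjusted p = 0.000423 to 0.0234). For GSH1, the gene of the first enzyme of glutathione synthesis, it was 0.97 (limma adjusted p = 0.0448). That call ended on leaving out any of 10 arrays, that is all but aerobic CEN.PK113-7D replicate 2 and IMZ383 replicate 3 (adjusted p = 0.0516 to 0.1), and with quantile normalization (0.0683), median centring (0.0844), no floor (0.066) and the replicate block (0.0899). The IRC7 call ended without IMZ305 replicate 2 (adjusted p = 0.0633), without anaerobic CEN.PK113-7D replicate 2 (0.0541), with the replicate block (0.0513) and with an intensity trend (0.0637). Strain, atmosphere and feed change together in this difference and cannot be told apart.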

How the results depend on the processing

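Counts of the 35 genes kept within 1.5 times of the reported count in 152 of 186 recomputations. In IMZ305 with air, 4 higher and 2 lower became 1 lower with median centring, no floor, low-BioB arrays only, the replicate block or a 2-fold minimum, and 7 higher with array quality weights; leaving out 1 array gave 3 to 6 higher and 1 to 2 lower. In IMZ383, 1 higher and 1 lower became 2 and 2 with a filter on low signal or an intensity trend, and 3 and 2 with 1 probe set per gene or array weights; leaving out 1 array gave 0 to 2 and 1 to 2. For oxygen, 5 higher and 7 lower became 15 and 4 with median centring and 3 and 4 with a 2-fold minimum. With median centring 21.1% of all probe sets were higher and 11.8% lower, against 11% and 23.3% as reported. Leaving out 1 array gave 4 to 6 and 7 to 10. The high-BioB set holds 1 aerobic array, assumed to vary like the other groups. For the difference between strain effects, 1 higher and 5 lower became 2 higher with array weights, and leaving out 1 array gave 1 to 2 and 3 to 5. Shares of all probe sets moved too. In IMZ305, 6.15% to 7.05% were lower in the named settings that left 1 gene lower, against 8.3% as reported. SUL1 was the gene lost in those settings. No share was computed for the 2-fold minimum. Array quality weights gave 9.38% higher there, against 6.09%. In IMZ383, the named settings gave 1.81% to 2.99% higher and 0.809% to 1.26% lower, against 1.69% and 0.593%. For the difference, array weights gave 10.1% higher, against 5.92%. The cause of these moves was not tested. With the replicate block the other counts were 4 higher (IMZ305), 1 and 1 (IMZ383), 5 and 7 (oxygen) and 1 and 5 (difference). Of the named genes, SAM3 in IMZ383 turned sign at 1 probe set under background (-1.04). On the high-BioB arrays MET31, MET30, HOM3, STR2, MET6 and SAM1 were no longer called for oxygen (adjusted p = 0.0518 to 0.426). Signal near background limits JLP1, and 3 arrays a group limit changes under 2-fold.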
